A study of Mus musculus with 4 samples.

Results

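Matrix metalloproteinases and their inhibitors were followed here as 6 genes, Timp1, Timp2, Mmp12, Mmp13, Mmp14 and Mmp19, chosen by name out of 16308 genes. All 6 were in each of the 4 count tables. The tables hold single-cell RNA-seq of CD45+ cells sorted from the muscularis externa of the mouse small intestine, 24 h or 72 h after intestinal manipulation, a surgical handling of the gut that induces muscularis inflammation. One library came from WT C57BL/6J mice and one from CCR2-/- mice (strain B6.129S4-Ccr2tm1Ifc/J) at each time, all aged 12 weeks. In CCR2-/- mice the chemokine receptor that brings monocytes out of the bone marrow is missing in every cell, so the deletion is not limited to macrophages (Mφs). Each library pooled several mice and there was 1 library per group, so no difference between groups has a replicate check and no p-value is given. Intervals cover counting error only, and mice, pool and group cannot be told apart.

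The metalloproteinases are zinc enzymes that cut collagens, elastin and other matrix proteins, as well as cytokines and receptors at the cell surface. Most are secreted as inactive precursors and are held in check by the TIMPs, which block the active site one to one. Mmp12 is the macrophage elastase, Mmp13 a fibrillar collagenase, and Mmp14 a collagenase anchored in the membrane that activates pro-Mmp2, a step in which Timp2 acts as the bridging partner. Mmp19 is a secreted enzyme of broad substrate range. Timp1 is an inducible inhibitor that inhibits Mmp14 poorly, whereas Timp2 inhibits it well.

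In GRCm38, Mmp13 (chr9:7272514-7283331) and Mmp12 (chr9:7344381-7369499) are neighbours on the plus strand of the same gene cluster. Mmp14 lies at chr14:54431612-54445364 and Mmp19 at chr10:128790910-128800824, both on the plus strand. Timp1 (chrX:20870166-20874735, plus strand) sits inside the Syn1 gene, which runs the other way. Timp2 (chr11:118301069-118355740, minus strand) holds Cep295nl on its own strand. These overlapping genes had few UMIs (unique molecular identifiers, each standing for 1 captured transcript). Over all kept cells Syn1 had 266 against 1786 for Timp1, and Cep295nl 31 against 8731 for Timp2. Tmem198b, which overlaps the end of Mmp19 on the other strand, had 332 against 1991 for Mmp19. The sources do not state how reads in these overlaps were assigned.

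Mmp12 and Mmp13 were both higher in CCR2-/- than in WT Mφs at 24 h, as described below, so the 120 bases before their start sites are shown. They are from RefSeq (GRCm38.p6, plus strand, at chr9:7272394-7272513 for Mmp13, chr9:7344277-7344396 for the upstream and chr9:7347254-7347373 for the downstream start of Mmp12). Capitals mark the letters TGANTCA, the binding letters of the AP-1 family of inducible transcription factors, which read the same on both strands.
Mmp13: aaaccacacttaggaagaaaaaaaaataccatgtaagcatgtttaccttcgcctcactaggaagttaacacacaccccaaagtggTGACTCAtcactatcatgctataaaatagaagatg
Mmp12, upstream start: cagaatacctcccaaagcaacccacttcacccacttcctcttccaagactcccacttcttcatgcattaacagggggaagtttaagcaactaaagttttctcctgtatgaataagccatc
Mmp12, downstream start: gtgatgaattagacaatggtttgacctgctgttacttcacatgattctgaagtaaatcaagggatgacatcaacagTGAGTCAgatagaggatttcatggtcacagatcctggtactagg
The motif began 35 bases before the Mmp13 start and 44 bases before the downstream Mmp12 start. It was in neither the upstream Mmp12 window nor the windows of Timp1, Timp2 and Mmp14, searched over 250 bases. Windows were found for 5 of the 6 genes, all but Mmp19. Among all 32851 such windows, 6.75% held the motif, and a match is a description of the letters, not of binding.

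The libraries held between 1042 and 1764 kept cells and 9620609 to 21206308 UMIs, with a median of 3284 to 12859 UMIs per cell and the lower medians in both CCR2-/- libraries. Clusters were built without the 6 genes and named from marker lists. Of 5795 kept cells, 2347 were monocyte/Mφ-like. At 24 h they numbered 1271 in WT (75.9% of the library) and 217 in CCR2-/- mice (12.3%). The numbers at 72 h were 731 (55.6%) and 128 (12.3%). Csf1r, Adgre1, Fcgr1 and Cd68 were present in this class in every library, and the T cell gene Cd3e was at most 7.48 UMIs per 1000000 (CPM, used for all levels, with the UMIs of the same class and library as the total). Ccr2 itself was at 751 CPM in WT and 95.5 CPM in CCR2-/- monocyte/Mφ-like cells at 24 h, and at 971 and 101 CPM at 72 h. Whether the UMIs left in CCR2-/- cells come from outside the deleted part was not tested. Fibroblast markers in the class summed to 1.38 to 11.4 CPM and smooth muscle markers to 10.0 to 74.5 CPM, both higher at 72 h than at 24 h.

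Mmp13 and Mmp14 transcripts lay mostly in monocyte/Mφ-like cells, whereas Timp1 was also found in dendritic cell-like cells, Mmp12 of WT mice at 24 h in an unnamed Ear2-high cluster, and Timp2 and Mmp19 in granulocytes. In WT at 24 h the class held 100% of the Mmp13 UMIs, 99.1% of Mmp14, 94.1% of Timp2, 92.1% of Timp1 and 92.0% of Mmp19, but it also held 90.1% of all UMIs of the library. Its part of the Mmp12 UMIs there was 41.7%, with 58.3% in the Ear2-high cluster, which held 0.798% to 10.0% in the other libraries. The CCR2-/- library at 24 h separates the classes better, since there the monocyte/Mφ-like cells held only 34.8% of all UMIs. There they held 99.3% of the Mmp13 UMIs, 94.3% of Mmp14 and 85.9% of Mmp12. At 72 h in CCR2-/- mice they held 67.7% of Mmp13 and 53.9% of Mmp14, with 16.7% of all UMIs. Dendritic cell-like cells held 32.3% and 31.3% there, below their 43.1% of all UMIs, and 19 of their 21 Mmp13 UMIs lay in 1 cell. Of the Mmp19 UMIs at 24 h, 52.5% were in monocyte/Mφ-like and 43.8% in neutrophil-like cells. The order turned for the inhibitors in that library at 24 h. Dendritic cell-like cells held 56.8% of the Timp1 UMIs with 12.7% of all UMIs, and neutrophil-like cells held 52.8% of the Timp2 UMIs with 39.3% of all UMIs.

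**Figure D1:**
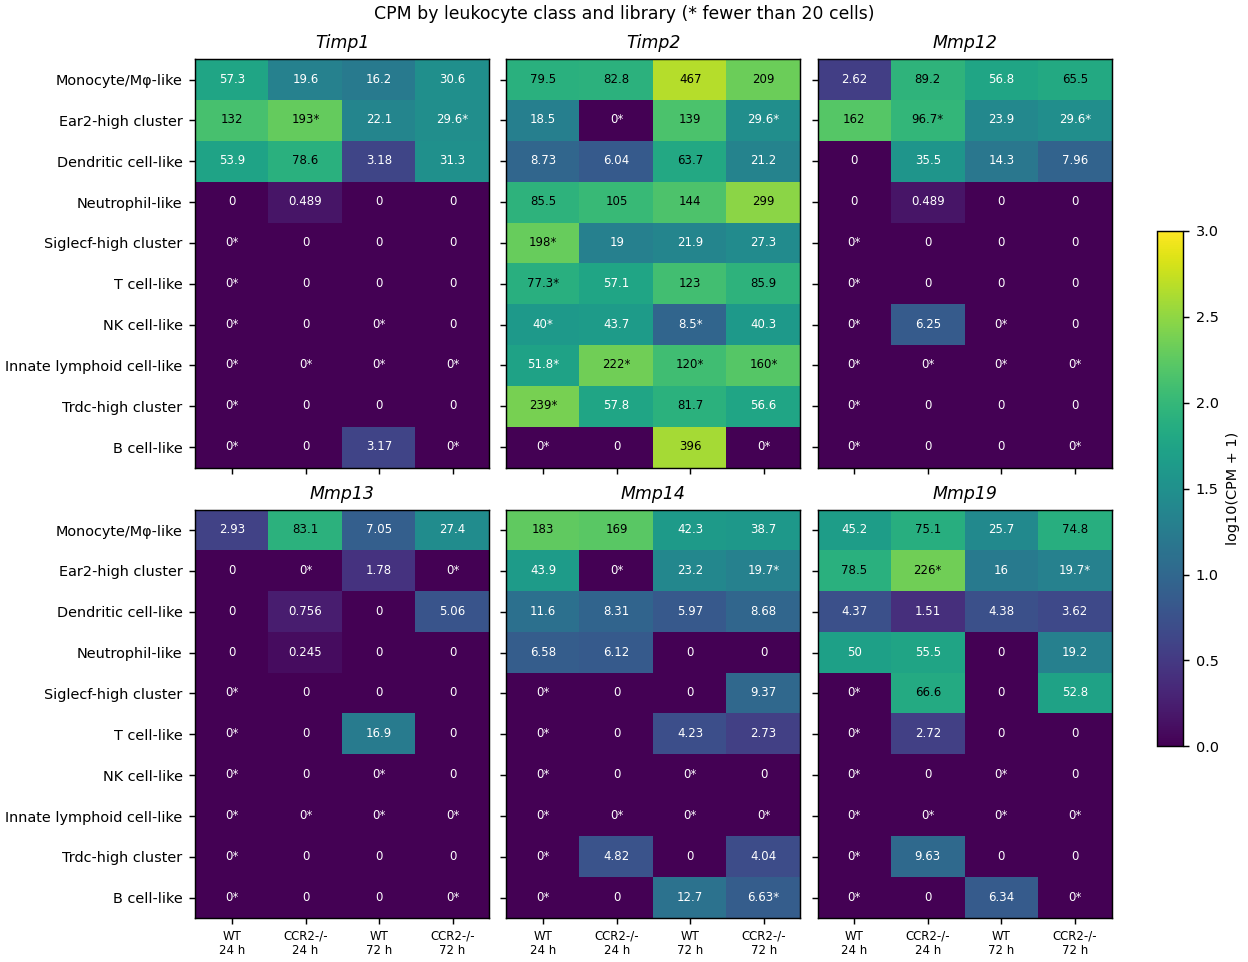
Level of each gene in each leukocyte class (rows) and library (columns) in CPM, printed in each field and coloured on a log10(CPM + 1) scale, with a star where the class had fewer than 20 cells. Mmp14 is highest in monocyte/Mφ-like cells in every library (183, 169, 42.3 and 38.7), whereas Timp2 is present across most classes and reaches 299 in neutrophil-like cells of CCR2-/- mice at 72 h.

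Timp1 in monocyte/Mφ-like cells was highest in WT at 24 h. Its level was 57.3 CPM in WT and 19.6 CPM in CCR2-/- mice at 24 h, and 16.2 CPM in WT and 30.6 CPM in CCR2-/- mice at 72 h. The CCR2-/- value at 24 h and the WT value at 72 h, the lowest pair, had overlapping intervals (15.3 to 24.7 and 13.8 to 18.9). Against WT, the CCR2-/- level was 2.92-fold lower at 24 h (log2 ratio -1.55, 95% interval -1.91 to -1.20) and 1.89-fold higher at 72 h (log2 ratio 0.91, 0.42 to 1.38). Between 24 h and 72 h the level was 3.53-fold lower in WT and 1.56-fold higher in CCR2-/- mice (log2 ratio 0.64, 0.08 to 1.19). The difference between these time courses was 2.46 log2 units (1.88 to 3.04, counting error). The 72 h value for CCR2-/- mice rested on 49 UMIs in 20 cells, of which 12 UMIs were in 1 cell. In WT at 72 h 3 of 731 cells held 44.7% of the 161 UMIs, and without the 3 highest cells of each library the WT level at 72 h was 8.99 CPM and the log2 ratio over time in WT moved from -1.82 to -2.58. The CCR2-/- value at 72 h also rested on which cells were kept. At that time 6 CCR2-/- cells with markers of non-immune cells, left out of all classes, carried 225 Timp1 UMIs or 1938 CPM, and with them in the class the log2 ratio to WT at 72 h was 3.27.

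Timp2 in monocyte/Mφ-like cells was low at 24 h and high at 72 h, most of all in WT. Levels were 79.5 CPM in WT and 82.8 CPM in CCR2-/- mice at 24 h. At 72 h they were 467 and 209 CPM. The values at 24 h did not differ beyond counting error (log2 ratio 0.06, -0.12 to 0.24), and the sign turned with TMM scaling (-0.06). Within sub-clusters 4 and 7, described below, it was lower in CCR2-/- cells (-1.43, -2.67 to -0.41, and -1.37, -1.91 to -0.84). The value for sub-cluster 4 rested on 8 UMIs in CCR2-/- cells. In sub-cluster 1 the genotypes did not differ beyond counting error (-0.17, -0.59 to 0.23). At 72 h the level was 2.23-fold lower in CCR2-/- than in WT cells (log2 ratio -1.16, -1.32 to -0.998), though less than 2-fold lower when cells were thinned to 1000 UMIs each (-0.44) or averaged one by one (-0.59). From 24 h to 72 h it was 5.88-fold higher in WT and 2.53-fold higher in CCR2-/- mice (log2 ratio 1.34). The log2 ratio in CCR2-/- mice was 0.79 without the dividing cells described below and 2.35 after thinning. It was 0.55 among cells with at most 5% mitochondrial UMIs, which left 43 of 128 CCR2-/- cells at 72 h. The time courses differed by -1.22 log2 units (-1.46 to -0.98). These transcripts were spread over many cells. In WT at 72 h, 623 of 731 cells had at least 1 Timp2 UMI and the highest cell held 1.06% of them. With each cell thinned to 1000 UMIs, the share of cells with a Timp2 UMI was 6.90% in WT and 6.60% in CCR2-/- mice at 24 h. Lymphocytes of the T, NK and innate lymphoid classes had 1 of 20 cells with a UMI in WT and 8.60% in CCR2-/- mice, so the thinned share in CCR2-/- cells was not above theirs. Among dendritic cell-like cells 1 of 42 had a UMI in WT and 0 of 59 in CCR2-/- mice, the latter allowing up to 5.08%. At 72 h the shares of monocyte/Mφ-like cells were 31.1% and 25.5%, against 6.90% and 6.98% in the lymphocytes. Thinned to 2000 UMIs they were 50.5% (46.7% to 54.2%) and 31.7% (22.8% to 41.7%). Unthinned shares were 37.1% in WT and 47.0% in CCR2-/- monocyte/Mφ-like cells at 24 h, and 85.2% and 64.8% at 72 h. Their median depths ranged from 9783.5 to 15815 UMIs per cell, against 4817 to 7330 in the lymphocytes.

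Mmp14 was the broadest of the metalloproteinases and its intervals for the ratio between genotypes included 0 at both times. Its level was 183 CPM in WT and 169 CPM in CCR2-/- monocyte/Mφ-like cells at 24 h. At 72 h it was 42.3 and 38.7 CPM. The log2 ratio of CCR2-/- to WT was -0.12 at 24 h (-0.24 to 0.01) and -0.13 at 72 h (-0.54 to 0.26). The sign at 72 h changed with the processing, being 0.15 as a mean over cells and 0.71 after thinning. The level was 4.32-fold lower at 72 h than at 24 h in WT and 4.36-fold lower in CCR2-/- mice (log2 ratio -2.13, or -0.69 after thinning), a difference of -0.01 log2 units between the genotypes (-0.42 to 0.39). Unthinned, 70.0% of the cells of either genotype had an Mmp14 UMI at 24 h. After thinning the share was 17.3% in WT and 12.7% in CCR2-/- cells at 24 h, against 0 of 20 and 0 of 93 of the lymphocytes, which allows up to 15% and 3.23%. At 72 h it was 5.42% and 8.18%, or 32.7% and 28.1% unthinned.

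Mmp19 was higher in CCR2-/- cells when summed over the class, whereas the unthinned share of cells with a UMI differed less. Its level was 45.2 CPM in WT and 75.1 CPM in CCR2-/- monocyte/Mφ-like cells at 24 h, and 25.7 and 74.8 CPM at 72 h. The order of the 4 levels was thus both CCR2-/- libraries, whose intervals overlap, then WT at 24 h, then WT at 72 h. The difference was 1.66-fold at 24 h (log2 ratio 0.73, 0.53 to 0.93) and 2.91-fold at 72 h (1.54, 1.22 to 1.86). In CCR2-/- mice at 72 h the 120 UMIs lay in 31 cells, and 5 cells held 52.5% of them. In CCR2-/- mice at 24 h 3 of 217 cells held 26.8% of the UMIs. Without the 3 highest cells of each library the log2 ratio was 0.41 at 24 h and 1.18 at 72 h. An Mmp19 UMI was seen in 34.1% of WT and 33.2% of CCR2-/- cells at 24 h. At 72 h the shares were 20.8% and 24.2%.

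Among the 6 genes, Mmp12 and Mmp13 differed most between genotypes at 24 h, and both lay in few cells. Mmp12 was at 2.62 CPM in WT and 89.2 CPM in CCR2-/- monocyte/Mφ-like cells at 24 h, a 34.1-fold difference (log2 ratio 5.09, 4.66 to 5.55). At 72 h it was at 56.8 CPM in WT and 65.5 CPM in CCR2-/- cells, which did not differ beyond counting error (0.21, -0.11 to 0.51). This ratio depended on the processing, from -1.13 after thinning to 2.24 with cells assigned to the class one by one. By level, WT cells at 24 h thus stood alone, far below the other 3 libraries. Unthinned, only 19 of 1271 WT cells (1.49%) had an Mmp12 UMI at 24 h, against 27 of 217 CCR2-/- cells (12.4%). At 72 h the numbers were 28 of 731 WT cells (3.83%) and 11 of 128 CCR2-/- cells (8.59%). By unthinned share of cells, both WT libraries were thus below both CCR2-/- libraries. Thinned to 1000 UMIs the shares were 0.24% in WT and 5.19% in CCR2-/- cells at 24 h. At 72 h they were 0.97% (0.39% to 1.99%) and 2.73% (0.57% to 7.76%, from 3 cells), with overlapping intervals. The levels themselves turned on single cells. One cell held 119 of 323 UMIs in CCR2-/- mice at 24 h, and one held 269 of 564 in WT at 72 h. Without the 3 highest cells of each library the levels were 1.57 CPM in WT and 38.3 CPM in CCR2-/- mice at 24 h, and 14.3 and 15.9 CPM at 72 h. The log2 ratio of 72 h over 24 h was 4.44 in WT (4.02 to 4.89), or 3.18 without these cells, and -0.45 in CCR2-/- mice (-0.78 to -0.12), or -1.27. UMIs of 1 cell are not independent, so the Poisson intervals are too narrow for this gene.

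Mmp13 was at 2.93 CPM in WT and 83.1 CPM in CCR2-/- monocyte/Mφ-like cells at 24 h, a 28.4-fold difference (log2 ratio 4.83, 4.41 to 5.26). At 72 h it was at 7.05 and 27.4 CPM, a 3.89-fold difference (log2 ratio 1.96, 1.38 to 2.53). From 24 h to 72 h the level was 3.03-fold lower in CCR2-/- mice. In WT it was 2.41-fold higher but below 20 CPM at both times. These log2 ratios moved with the processing, from -1.60 to -3.70 in CCR2-/- mice with at most 5% mitochondrial UMIs and from 1.27 to 0.22 in WT after thinning. Unthinned, 17 of the 1271 WT cells had an Mmp13 UMI at 24 h, against 31 of the 217 CCR2-/- cells. The numbers at 72 h were 25 of 731 WT cells and 16 of 128 CCR2-/- cells. Thinned to 1000 UMIs the shares were 0.56% in WT and 4.25% in CCR2-/- cells at 24 h, and 0.83% and 2.73% at 72 h. The highest cell held 59 of the 301 Mmp13 UMIs in CCR2-/- mice at 24 h. Without the 3 highest cells of each library the log2 ratio at 24 h was 4.89. The difference at 72 h was less firm. Among cells with at most 5% mitochondrial UMIs, which left 43 CCR2-/- cells with 3 Mmp13 UMIs, the log2 ratio was -0.40. It was 1.07 without the dividing cells.

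**Figure D2:**
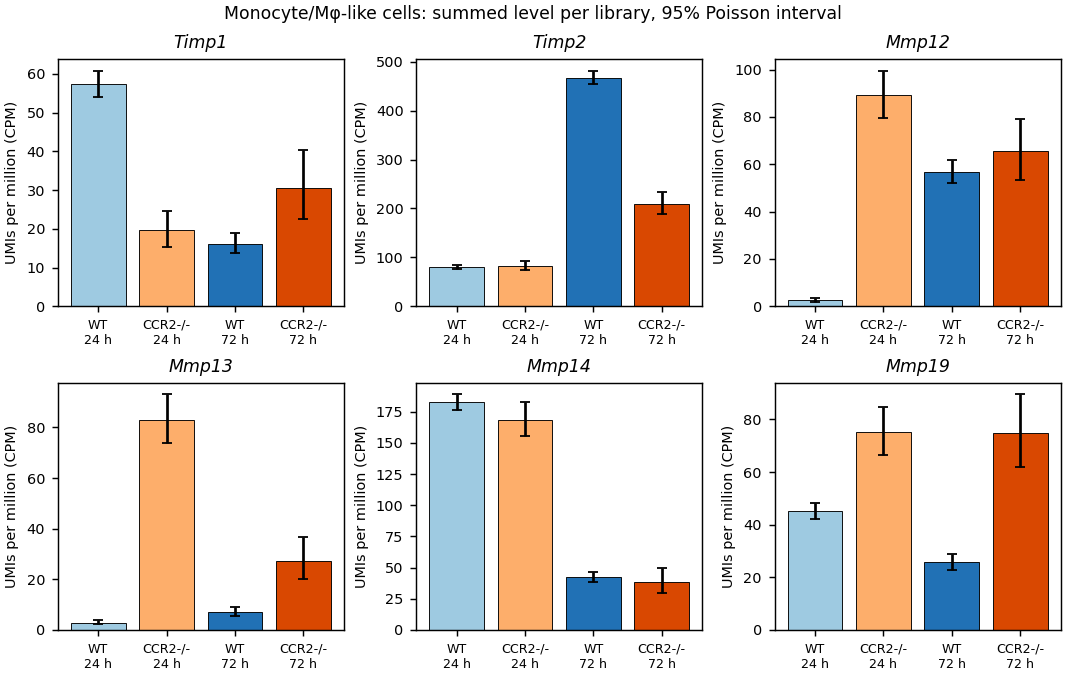
CPM (vertical axes, each with its own scale from 0) of each gene summed over the monocyte/Mφ-like cells of each library, with 95% Poisson intervals as bars. Timp1 and Mmp14 are highest in WT at 24 h, Timp2 in WT at 72 h (467), and Mmp12 and Mmp13 are near 0 in WT at 24 h (2.62 and 2.93).

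**Figure D3:**
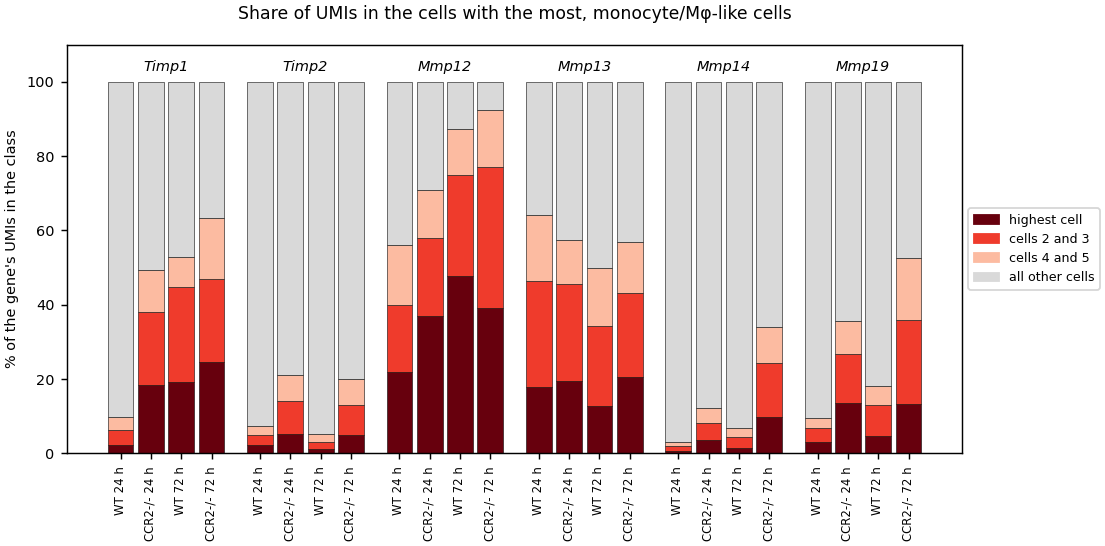
Share of each gene's UMIs (vertical axis, percent) that lay in the highest cell, the next cells down to the fifth, and all other monocyte/Mφ-like cells of each library. For Mmp12 the highest cell alone holds 22% to 47.7%, whereas for Mmp14 and Timp2 it holds at most 9.68% and 5.33%.

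Counted together, 3 of the 6 genes differed by 2-fold or more between CCR2-/- and WT cells at 24 h, Mmp12 and Mmp13 being higher and Timp1 lower. Among all 5866 genes at 20 CPM or more in either library, 4.14% did so (2.78% higher and 1.36% lower). The median log2 ratio was 0.39 over the 6 genes and -0.07 over all genes. At 72 h 3 of 6 passed, Mmp13 and Mmp19 higher and Timp2 lower, beside 7.82% of 6352 genes (5.18% higher and 2.64% lower), with medians of 0.56 and 0.12. Between 72 h and 24 h in WT, 4 of the 5 genes at 20 CPM passed (Timp2 and Mmp12 higher, Timp1 and Mmp14 lower), beside 15.6% of 6208 genes (7.46% higher and 8.12% lower). In CCR2-/- mice 3 of 6 passed (Timp2 higher, Mmp13 and Mmp14 lower), beside 14.1% of 6370 genes (9.4% higher and 4.73% lower). No library had a replicate, so a call here is a size and not a test, and 6 genes chosen by name with earlier results known support no statement on the family.

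The sub-clusters of the class were made without the 6 genes or their relatives and named from subset marker lists, which gave names to 10 of 13. Different sub-clusters filled the class in each library. In WT at 24 h the largest was a Fabp5-like sub-cluster led by Ppbp, Pf4 and Fabp5 (sub-cluster 1, 387 cells). Next came an Arg1-like one led by Cxcl3, Il1a and Csf3 (sub-cluster 3, 339 cells). It scored 0.91 for the Arg1 list and 0.70 for the Ly6c monocyte list. Arg1 itself was among the leading genes of sub-cluster 1, not of sub-cluster 3. After these came an unnamed one led by H2-DMb1 and Spint1 (sub-cluster 4, 228 cells). In WT at 72 h the largest were a Cd206-like one led by Fcrls and Apoe (sub-cluster 2, 414 cells) and an Ltc4s-like one led by Retnla, Ltc4s and Cd5l (sub-cluster 6, 123 cells). The largest of CCR2-/- mice were a Fabp5-like one led by Fabp4, Inhba and Il7r (sub-cluster 7, 75 cells) and a Cx3cr1-like one, where Mmp13, not used to build it, and Lilra5 led (sub-cluster 8, 47 cells), at 24 h, and a dividing one (sub-cluster 9, 59 cells), which also carried the plasma cell transcripts Igkc, Igha and Jchain, at 72 h.

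The 6 genes were spread unevenly over them, and some shared a place. Sub-cluster 7 of CCR2-/- mice at 24 h held 64.1% of the Mmp12, 54.3% of the Mmp14 and 62.9% of the Mmp19 UMIs of its class. It had 75 of the 217 cells there, and 119 of its 207 Mmp12 UMIs lay in 1 cell. Timp1 was at 62.1 to 78.9 CPM in sub-clusters 1, 3 and 7 of WT mice at 24 h, at 168 CPM in the unnamed sub-cluster 10 of the same library, whose cells were shallow, and at 2 UMIs among all 122 cells of the Cx3cr1-like sub-cluster 8. Among sub-clusters with 15 or more cells of a library, Timp2 was highest in the Ltc4s-like cells of WT mice at 72 h, at 1040 CPM, followed by the dividing cells (453 CPM) and the Cd206-like cells (383 CPM) of the same library. It was lowest in sub-cluster 4 of CCR2-/- mice at 24 h, at 14.1 CPM, and in the Arg1-like sub-cluster 3 of WT mice at 24 h, at 19.1 CPM. In the Cx3cr1-like cells it stayed between 164 and 218 CPM in the 3 libraries with that many cells. Mmp14 in WT mice at 24 h was at 303 CPM in those same Arg1-like cells, 299 CPM in the Fabp4-led sub-cluster 7 and 296 CPM in the Cx3cr1-like cells, with overlapping intervals. It was at 237 CPM in sub-cluster 7 of CCR2-/- mice at 24 h, against 169 CPM in the whole class. In Ly6c monocyte-like cells it was low, at 36.7 CPM in WT mice at 24 h.

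Mmp13 in CCR2-/- mice at 24 h lay mainly in the Cx3cr1-like sub-cluster, which held 76.4% of its UMIs in the class. In the other libraries the dividing sub-cluster, which also scored for the Cx3cr1 list (1.56), held more of them than the Cx3cr1-like one. The parts were 28.6% (16 UMIs in 2 cells) against 23.2% in WT at 24 h. They were 34.3% against 24.3% in WT at 72 h and 84.1% against 6.82% in CCR2-/- mice at 72 h. In the Cx3cr1-like cells Mmp13 stood at 320 CPM in CCR2-/- mice at 24 h (230 UMIs in 47 cells), 72.5 CPM in WT mice at 24 h (13 UMIs in 18 cells) and 30.6 CPM in WT mice at 72 h (17 UMIs in 49 cells). Outside these cells few cells carried the gene at 24 h. In the Fabp5-like sub-cluster 1 the level was 66.7 CPM in CCR2-/- and 1.57 CPM in WT mice, a log2 ratio of 5.41 (4.36 to 6.59), but 4 of 28 CCR2-/- cells held all 34 UMIs and 1 of them 47.1%. In sub-cluster 7 the interval of the ratio included 0 (1.97, -0.11 to 5.13). In the dividing cells at 72 h the genotypes did not differ beyond counting error, at 40.4 CPM in CCR2-/- and 52.0 CPM in WT mice (-0.36, -1.14 to 0.44). Mmp12 was at 148 CPM in the Fabp4-led sub-cluster 7 of CCR2-/- mice at 24 h, where 1 cell held more than the others together, and at 24.8 CPM in the same cells of WT mice (log2 ratio 2.58, 1.84 to 3.41). In the Cx3cr1-like cells at 24 h it was at 97.5 CPM in CCR2-/- mice, with 0 UMIs in the 18 WT cells. In the dividing cells at 72 h it was at 88.5 CPM in CCR2-/- and 8.67 CPM in WT mice, from 81 UMIs in 6 cells and 4 UMIs in 1 cell.

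The remaining differences between genotypes depended on the sub-cluster. Timp1 at 24 h did not differ beyond counting error in the Fabp5-like sub-cluster 1, at 68.7 CPM in CCR2-/- and 62.1 CPM in WT mice (0.15, -0.40 to 0.65), and was lower in CCR2-/- mice in sub-cluster 7, at 13.5 against 78.9 CPM (-2.54, -3.39 to -1.76). Timp2 at 72 h was lower in CCR2-/- mice in the dividing cells too, at 260 against 453 CPM (-0.80, -1.07 to -0.53). Mmp19 at 24 h was 43.2 and 42.9 CPM in sub-cluster 1 of CCR2-/- and WT mice, but 122 and 54.2 CPM in sub-cluster 7 (1.17, 0.64 to 1.74). Of the 128 CCR2-/- cells at 72 h, 59 were in the dividing sub-cluster. Without it the log2 ratio of CCR2-/- to WT at 72 h became 1.81 for Timp1, -1.72 for Timp2, -0.76 for Mmp12 and 2.60 for Mmp19.

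**Figure D4:**
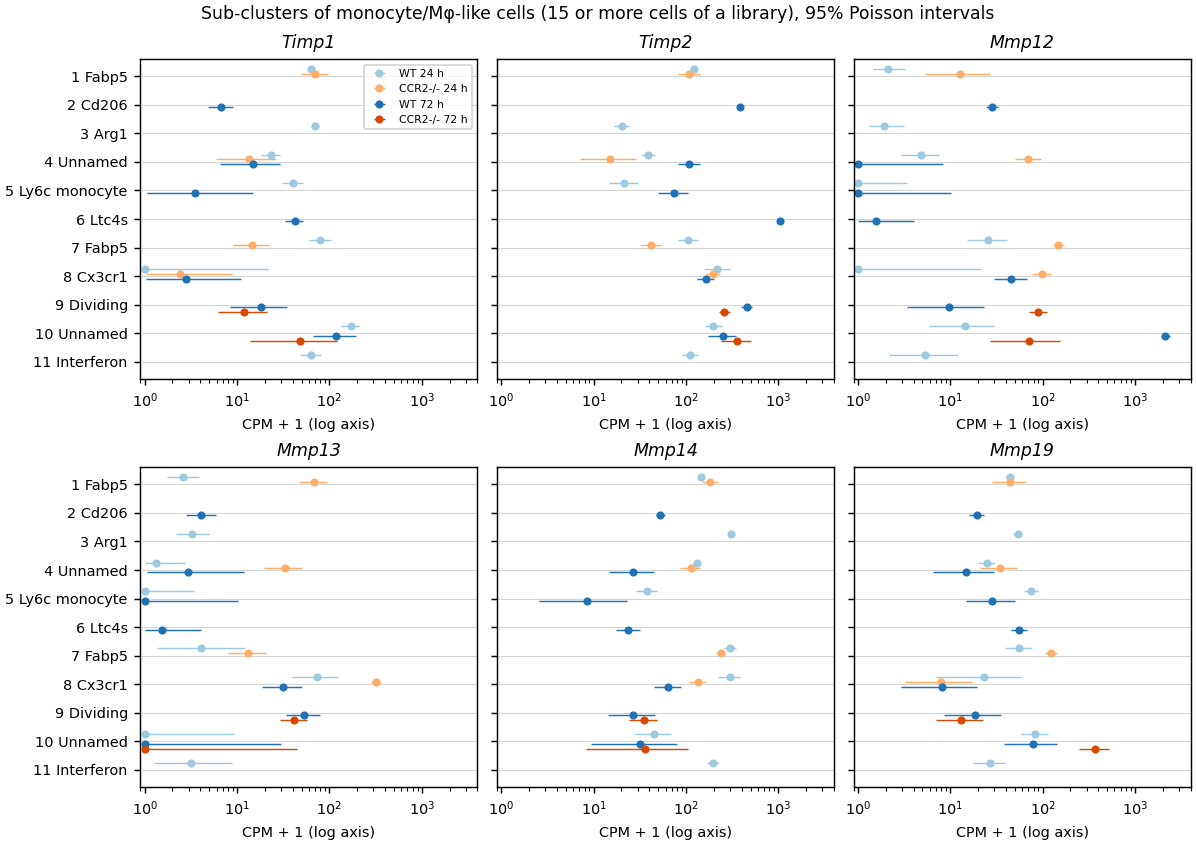
Level of each gene (horizontal log axes, CPM + 1) in 11 sub-clusters of the monocyte/Mφ-like cells (rows), with 1 point for each library that had 15 or more cells there and 95% Poisson intervals. Timp2 spans 14.1 to 1040 CPM, Mmp13 peaks in the Cx3cr1-like sub-cluster of CCR2-/- mice at 24 h (320), and the Mmp12 point at 2137 rests almost wholly on 1 cell.

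Outside this class, Timp2 and Mmp19 were found in granulocytes, and Timp1 in dendritic cell-like cells. In neutrophil-like cells Timp2 was at 85.5 CPM in WT and 105 CPM in CCR2-/- mice at 24 h, and at 144 and 299 CPM at 72 h. The log2 ratio of 72 h over 24 h was 0.75 in WT (0.12 to 1.36) and 1.503 in CCR2-/- mice (1.29 to 1.71), and the WT value at 72 h came from 36 UMIs in 87 cells. The unnamed Siglecf-high granulocytes had less, at 27.3 CPM in CCR2-/- mice at 72 h (374 cells). Among lymphocytes Timp2 was at 222 CPM in the 18 innate lymphoid cell-like cells of CCR2-/- mice at 24 h and at 57.1 CPM in T cell-like cells of that library. A Timp2 level of 396 CPM in B cell-like cells of WT mice at 72 h came from 6 of 20 cells, and 5 of them held 96.0% of it.

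Mmp19 in neutrophil-like cells was at 49.99 CPM in WT and 55.5 CPM in CCR2-/- mice at 24 h, with overlapping intervals. At 72 h no UMI was seen in 87 WT cells and the level was 19.2 CPM in CCR2-/- mice. The Siglecf-high cells of CCR2-/- mice had 66.6 CPM at 24 h and 52.8 CPM at 72 h, from 7 and 62 UMIs, with 0 UMIs in the 105 WT cells at 72 h, where a count of 0 allows up to 13.1 CPM. Timp1 in dendritic cell-like cells was at 53.9 CPM in WT and 78.6 CPM in CCR2-/- mice at 24 h, and at 3.18 and 31.3 CPM at 72 h. The WT value at 72 h was the lowest, and its 8 UMIs lay in 8 cells, whereas in CCR2-/- mice 1 cell held 33 of 130. By cluster, the Timp1 transcripts lay mainly in the one led by Ccl17, Cd209a and Il4i1, at 59.8 CPM over all libraries, against 0.537 CPM in the cluster led by Xcr1 and Clec9a. An Ear2-high cluster that scored for both Mφs and dendritic cells, and so was left unnamed, had 132 CPM of Timp1 and 162 CPM of Mmp12 in WT mice at 24 h (24 cells), where 1 cell held 37 of the 70 Mmp12 UMIs. With it counted as monocyte/Mφ-like, the log2 ratio of Mmp12 at 24 h was 3.86.

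The wider pathway was taken from a list of 36 other genes, of which 29 were in the tables and 12 reached 20 CPM in monocyte/Mφ-like cells at 24 h. Of these, 4 were 2-fold or more higher in CCR2-/- than in WT cells at 24 h and 0 lower, beside 2.78% and 1.36% of all genes, with a median log2 ratio of 0.02. At 72 h 3 of 11 were higher and 0 lower, beside 5.18% and 2.64% of all genes, with a median of 0.19. The higher ones were Plau, the urokinase that turns plasminogen into the metalloproteinase activator plasmin, its receptor Plaur, the gelatinase Mmp9 and the membrane protease Adam8. At 24 h Plau was at 54.9 CPM in CCR2-/- and 12.0 CPM in WT cells. Plaur was at 556 and 153 CPM, Mmp9 at 61.3 and 21.4 CPM and Adam8 at 250 and 119 CPM. At 72 h Plau, Mmp9 and Adam8 again passed, whereas Plaur was at 110 and 65.3 CPM. From 24 h to 72 h Adam8, Plaur and the neutrophil collagenase Mmp8 were 2-fold or more lower in both genotypes, 3 of 11 genes at 20 CPM in WT and 3 of 12 in CCR2-/- mice, beside 8.12% and 4.73% of all genes. None of the genes at 20 CPM was 2-fold higher, whereas below that minimum Adam19 was higher (log2 ratio 1.41 in WT and 1.04 in CCR2-/- mice), as was Mmp2 (2.79 and 1.85). The Adam9, Adam10, Adam15 and Adam17 sheddases, the scavenger receptor Lrp1, the metalloproteinase inducer Bsg and the convertase Furin stayed within 2-fold between genotypes at both times. The other inhibitors were near 0, Timp3 at 0 to 1.01 CPM and Reck at 0 to 0.552 CPM, as was Mmp2, whose precursor Mmp14 activates with Timp2 as partner, at 0.262 to 4.99 CPM. In neutrophil-like cells Mmp9 was at 1873 to 2525 CPM and Mmp8 at 107 to 350 CPM, and the part of granulocyte RNA in the monocyte/Mφ values was not tested.

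**Figure D5:**
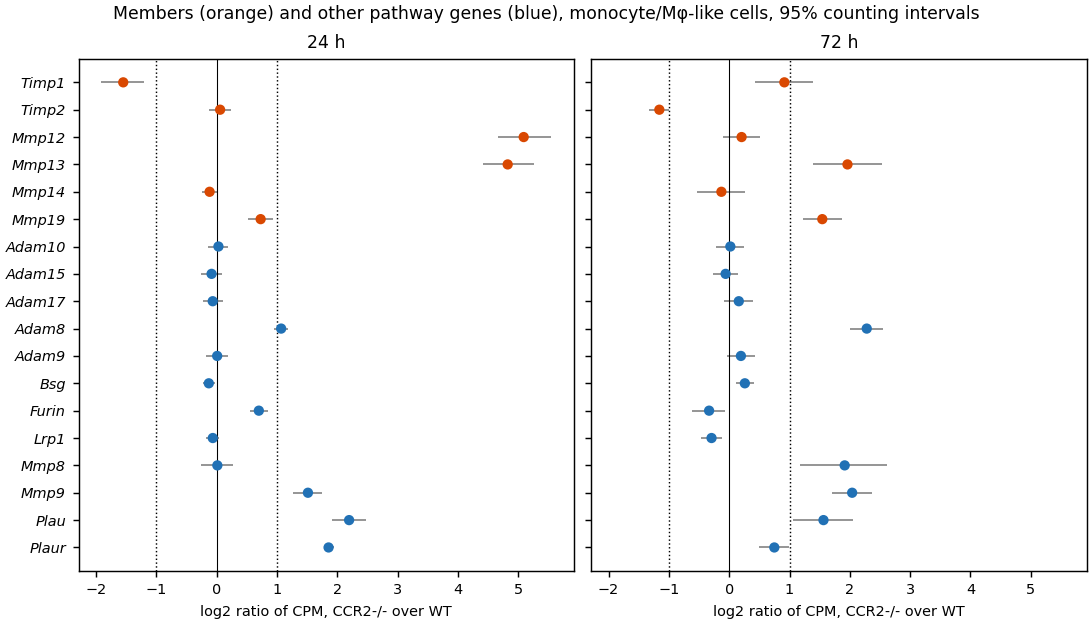
Log2 ratio of CPM in CCR2-/- over WT monocyte/Mφ-like cells (horizontal axes) at 24 h and 72 h for the 6 genes and for the pathway genes that reached 20 CPM in any comparison, with 95% counting intervals and dotted lines at 2-fold. Mmp12 and Mmp13 lie farthest to the right at 24 h (5.09 and 4.83), and Timp1 lies to the left at 24 h (-1.55) and to the right at 72 h (0.91).

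The genes whose levels ran most like each of the 6 were sought over 19 units, each a sub-cluster of 1 library with 20 or more cells, among 5071 genes, by Pearson's r of log2(CPM + 10). The units share libraries and differ in depth, so r is a description. Timp1 ran most like Arg1, the arginase of wound-type Mφs (r = 0.87), and Timp2 most like the glycolipid transfer protein Gltp (0.92). Mmp14 was closest to the small GTPase Rab20 (0.89) and Mmp19 to Cd44, the hyaluronan receptor (0.95). Mmp13 was closest to Ch25h, which makes the chemoattractant precursor 25-hydroxycholesterol (0.89), and Mmp12 to the integrin Itgax (0.79), the lowest of the leading values. Arg1, Rab20 and Cd44 also led by Spearman's rank correlation, and the leading gene was another for Timp2, Mmp12 and Mmp13. Among the 6 genes themselves the highest r were those of Timp1 with Mmp19 (0.58) and of Mmp12 with Mmp13 (0.55), and the lowest that of Mmp13 with Mmp19 (-0.49).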

How the data were processed

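CD45+ cells were profiled with the 10x 3' v3 kit. Per the labels and the study's methods, the authors used Cell Ranger 3.0.2 (GRCm38/mm10) and Seurat and deposited raw UMI counts of cells with at least 200 genes and at most 10% mitochondrial UMIs, which all 5811 cells met. Totals per library are given above; libraries shared at most 1 cell barcode.

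Cells were log-normalised to 10000 UMIs. PCA (30 components, 2000 variable genes without the 6 genes, their relatives, Ccr2 and MHC class II and complement genes) and Leiden clustering (leidenalg 0.10.2, resolution 1, 20 neighbours; Python 3.11.15, scanpy 1.11.5) gave 20 clusters, named from marker lists by mean z-score (at least 0.6). This threshold and the requirement of a lead over the next class were set after the clusters were seen, and rebuilt names may differ from the study's. Cells with non-immune markers (16) were left out. Scrublet called 11 cells, 0.19%, so doublets were in effect not removed. The pathway and marker lists and the 6 genes were chosen with earlier results of these data known.

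UMIs were summed per class and library and given as CPM with exact 95% Poisson intervals, and ratios with exact conditional binomial intervals. The interval of a difference between time courses used the Poisson variance of the log counts. A call is 2-fold among genes at 20 CPM in either library. Shares of cells were computed after thinning each cell to 1000 UMIs, with Clopper-Pearson intervals. A share of 0 allows 3 counts. Named were the 6 genes, pathway genes at 20 CPM, the leading gene of the 3 most like each, and Ccr2. Inhibitors and Mmp2 below 20 CPM, and overlapping genes, were added after their values were seen. The ratio code was checked on simulated counts. TMM factors came from edgeR 4.0.16. Coordinates are from GENCODE vM21.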

Additional observations from a re-analysis of the deposited data

Results flagged for a closer look

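Timp1, Mmp12 and Mmp13 moved in opposite directions over time in the 2 genotypes, or between genotypes at the 2 times, in monocyte/Mφ-like cells. With 1 library per group these differences were not tested, and the cause was not tested. From 24 h to 72 h, Timp1 changed by -1.82 log2 units in WT and 0.64 in CCR2-/- mice, and CCR2-/- cells differed from WT by -1.55 at 24 h and 0.91 at 72 h. Mmp12 changed by 4.44 log2 units in WT and -0.45 in CCR2-/- mice. Mmp13 changed by 1.27 log2 units in WT, at levels under 20 CPM, and by -1.60 in CCR2-/- mice. For Mmp13 these became 0.22 in WT after thinning and -3.70 in CCR2-/- mice with at most 5% mitochondrial UMIs.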

How the results depend on the processing

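Each ratio was recomputed under 14 alternatives. Of 336 such values, 249 lay within the interval of the reported one, 86 moved outside it and 1 reversed, Mmp13 of CCR2-/- over WT at 72 h, which was -0.40 with at most 5% mitochondrial UMIs. Values near 0 changed sign elsewhere, among them Timp2 at 24 h (-0.06 with TMM) and Mmp12 at 72 h (-1.13 after thinning, but 2.24 with cells assigned one by one). Of 48 alternative values of the shares of cells, 35 moved outside the interval. TMM shifted the median over all genes by -0.12 to -0.25. The number of the 6 genes past 2-fold stayed within 1.5 times, except between 72 h and 24 h in CCR2-/- mice without the dividing sub-cluster (5 in place of 3). For the pathway list, dropping the 20 CPM minimum gave 18, 19, 10 and 20 genes for CCR2-/- over WT at 24 h and 72 h and for 72 h over 24 h in WT and CCR2-/- mice, in place of 4, 3, 3 and 3. For a gene with 0 UMIs in either library, counts under 3 were set to 3, so its ratio largely followed the total UMIs. Mmp16, with 0 UMIs in both libraries at 24 h, was thus counted as past 2-fold. These larger numbers therefore cannot be read as genes whose levels differed. Thinning gave 5 at 72 h and 5 over time in WT, at most 5% mitochondrial UMIs gave 5 at 72 h, and 1.5-fold gave 6 over time in CCR2-/- mice. The cause of these other changes was not tested, apart from the lower threshold. Counting the Ear2-high cluster as monocyte/Mφ-like and leaving out the 3 highest cells were chosen after seeing the data. Leaving out a replicate was not possible with 1 library per group. No paired analysis was possible because each group is 1 library. In CCR2-/- mice at 72 h, 128 cells and 1603845 UMIs limit what can be seen.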
